A study of Mus musculus with 4 samples.

Results

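Markers of the thalamus and the netrin-G genes were followed in fetal mouse brain after maternal ethanol. The set listed 8 genes, Tcf7l2, Lhx9, Calb2, Gbx2, Rora, Prkcd, Ntng1 and Ntng2, and a gene was included where the array's annotation gave it a probe set with that symbol alone. This held for 7 genes with 8 probe sets, of 19938 genes and 35557 probe sets in all. Ntng2 had no probe set of its own symbol alone and is not reported. The genes were proposed with earlier results of these arrays known and were in that sense selected on the hippocampus ethanol difference, so that difference is described here and not tested.

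Total RNA came from embryos of C57BL/6J mice at embryonic day 18. Dams had been given phosphate-buffered saline (PBS) or ethanol by the intragastric route on embryonic days 8 to 12, 5 days in all. The ethanol dose was 2.9 g/kg/day in a 15% solution by volume. Forebrain and hippocampus were taken after each treatment, which makes 4 groups, each with 1 Affymetrix array. Values are the authors' deposited log2 expression values, so a difference of 1 is a 2-fold change. No difference between 2 arrays has a replicate check, and neighbouring values in any order of the arrays cannot be set against a spread. Litters and pooling are not in the labels, so a difference between litters or runs cannot be told apart from ethanol.

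The thalamus lies below the cortex and hippocampus and relays sensory and motor signals to the cortex through thalamocortical axons. Its neurons are specified by transcription factors, among them the homeobox gene Gbx2, the LIM-homeobox gene Lhx9 and Tcf7l2, the nuclear effector of Wnt and beta-catenin signalling that stays on in thalamic and habenular neurons. Rora encodes a retinoid-related orphan nuclear receptor of sensory thalamic nuclei. Calb2 encodes the calcium-binding protein calretinin and Prkcd protein kinase C delta, both used to mark thalamic nuclei, although calretinin is also found in interneurons and Cajal-Retzius cells. Netrin-G1 and netrin-G2 are lipid-anchored relatives of the netrins that sit on axons and bind the postsynaptic proteins NGL-1 and NGL-2, encoded by Lrrc4c and Lrrc4. Ntng1 is known for its expression in thalamocortical neurons. In tissue RNA, fewer cells of a type and less RNA per cell cannot be told apart.

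The sequences before an annotated transcription start are shown for Tcf7l2 and Ntng1, the genes over 1.5-fold apart between the hippocampus arrays for which a window was at hand. They are 250 bases long, read 5′ to 3′ on the gene's strand, and come from RefSeq on build GRCm38.p6. Capitals mark CpG dinucleotides. The Tcf7l2 window is chr19:55741560-55741809 on the plus strand and the Ntng1 window chr3:110143473-110143722 on the minus strand.
Tcf7l2: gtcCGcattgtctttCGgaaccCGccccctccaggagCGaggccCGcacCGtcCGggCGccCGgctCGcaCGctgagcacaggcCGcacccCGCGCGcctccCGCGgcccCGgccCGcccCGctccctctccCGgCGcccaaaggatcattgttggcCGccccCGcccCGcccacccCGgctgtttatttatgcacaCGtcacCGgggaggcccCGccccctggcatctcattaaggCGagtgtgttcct
Ntng1: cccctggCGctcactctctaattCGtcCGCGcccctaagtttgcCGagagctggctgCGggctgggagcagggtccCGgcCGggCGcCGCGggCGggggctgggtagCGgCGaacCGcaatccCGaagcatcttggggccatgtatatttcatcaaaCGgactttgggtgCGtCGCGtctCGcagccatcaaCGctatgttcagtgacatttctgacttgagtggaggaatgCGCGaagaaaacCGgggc
The Tcf7l2 window held 30 CpG and had a GC content of 72.8%, and the Ntng1 window held 25 CpG at 62.4%. The median over all windows of this length was 6 CpG and 52.4% GC. Tcf7l2 has another annotated start with 7 CpG in its window. The Ntng1, Lhx9 and Rora windows lie inside the annotated genes, so each precedes a start within its gene. Both windows shown are thus CpG-rich, as were those of Rora with 26 CpG and Gbx2 with 18, whereas the Lhx9 window held 4. The Ntng2 window also held 4, and the Prkcd windows held 18 and 1. Windows were at hand for 7 of the 8 listed genes, Ntng2 included, and not for Calb2. The letters ATCAAAG of the TCF/LEF motif, TAGGTCA of the ROR motif and TAATTA of homeodomain factors were searched on both strands. Each was found in 0 of the 9 windows of the listed genes, against 3.21%, 2.23% and 4.84% of all 32851 windows. This says only that these letters are not in these windows.

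The hippocampus array after PBS read lowest of the 4 arrays for Tcf7l2, Lhx9, Calb2, Gbx2, Rora and Ntng1, and the forebrain array after ethanol read highest for each of them. Prkcd did neither. Genes were kept for comparison where their mean over the 4 arrays was 7.11 or more, the median for all probe sets. Of the 11013 kept, 19.9% read lowest in the hippocampus PBS array. The share that also read highest in the forebrain ethanol array was 10.3%. All 7 genes passed this filter. Because the genes were proposed from a contrast that holds the hippocampus PBS array, these counts are a description.

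**Figure D1:**
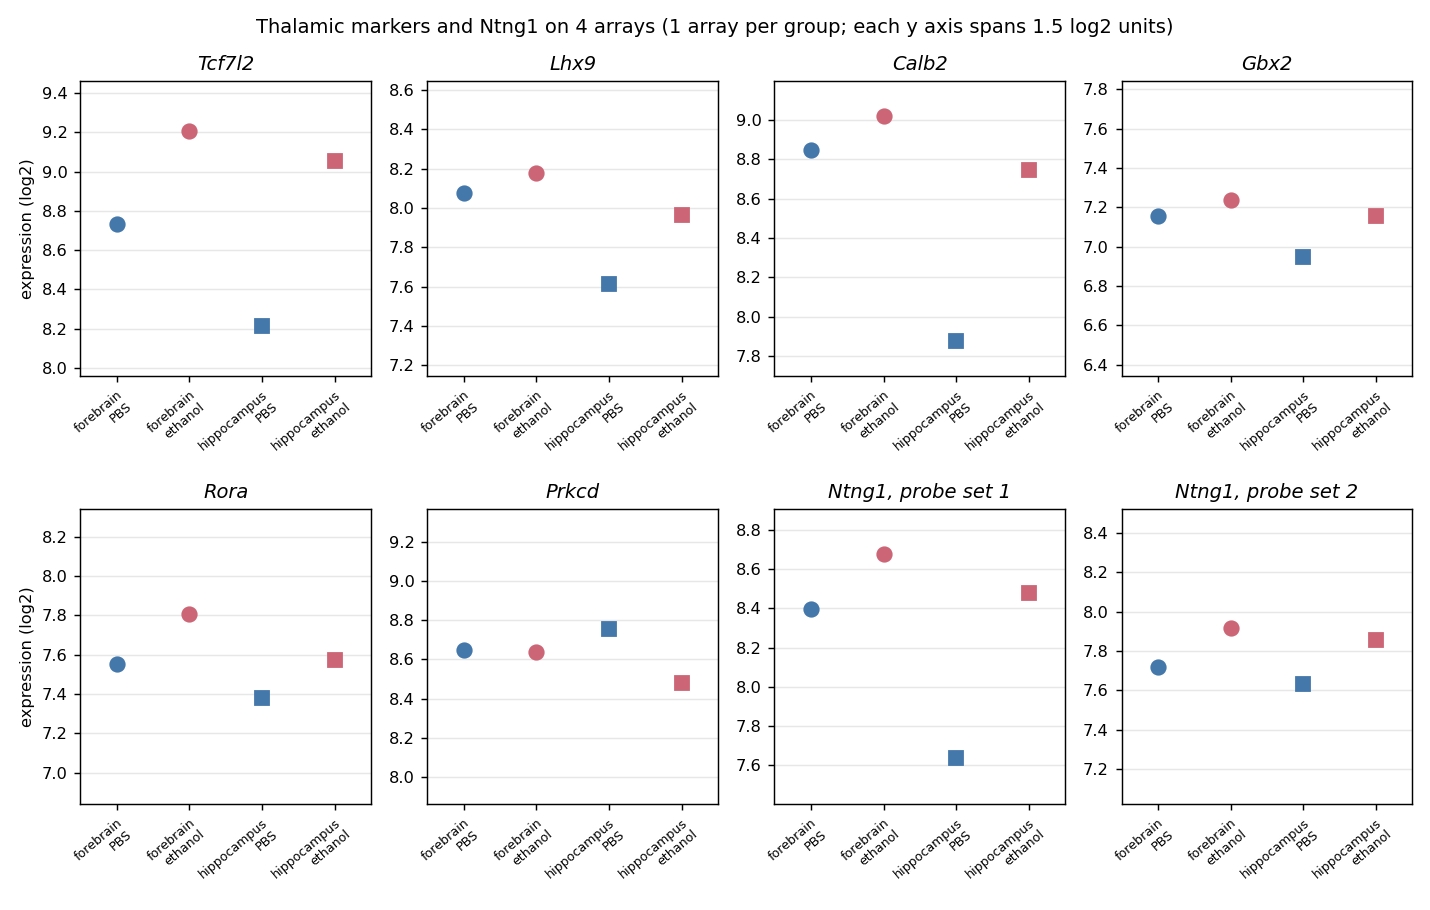
Expression (log2, y axis) of the 8 probe sets on the 4 arrays (x axis), with forebrain as circles, hippocampus as squares, PBS in blue and ethanol in red; each point is 1 array. The hippocampus PBS array is lowest in every panel but that of Prkcd, where it is highest at 8.75.

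Among the transcription factors, Tcf7l2 read 8.73 in forebrain after PBS, 9.20 in forebrain after ethanol, 8.22 in hippocampus after PBS and 9.05 in hippocampus after ethanol. Both ethanol arrays lay above both PBS arrays. The ethanol difference was 0.84 in hippocampus, or 1.79-fold, and 0.47 in forebrain, or 1.38-fold. Of the 11013 genes, Tcf7l2 held rank 20 from the top in hippocampus and rank 9 in forebrain. Its order thus followed treatment first and tissue second.

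Lhx9 read 8.07 and 8.18 in forebrain after PBS and ethanol, and 7.61 and 7.97 in hippocampus. Both forebrain arrays lay above both hippocampus arrays, so tissue came first in the order. The ethanol difference was 0.35 in hippocampus and 0.10 in forebrain, each short of 1.5-fold. Gbx2 read 7.16 and 7.24 in forebrain and 6.95 and 7.16 in hippocampus, all near the filter value and in hippocampus after PBS below it. Its 4 arrays spanned 0.29, the ethanol difference being 0.21 in hippocampus and 0.08 in forebrain. Rora read 7.55 and 7.80 in forebrain and 7.38 and 7.57 in hippocampus. Its ethanol differences of 0.19 in hippocampus and 0.25 in forebrain were of like size, and the forebrain value held rank 89 from the top.

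Of the genes of calcium and kinase signalling, Calb2 read 8.85 and 9.02 in forebrain after PBS and ethanol, and 7.88 and 8.75 in hippocampus. The hippocampus PBS array stood 0.99 below the mean of the other 3 arrays, which spanned 0.27 among themselves. The hippocampus ethanol difference was 0.87, or 1.82-fold, rank 15 from the top, and the forebrain difference was 0.17. Prkcd went the other way. It read 8.65 and 8.64 in forebrain and 8.75 and 8.48 in hippocampus. Its ethanol differences were -0.27 in hippocampus and -0.01 in forebrain, and its 4 arrays spanned 0.27.

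The axonal gene Ntng1 had 2 probe sets. The first, annotated with 20 accessions, read 8.40 and 8.67 in forebrain after PBS and ethanol, and 7.64 and 8.48 in hippocampus. The ethanol difference was 0.84 in hippocampus, or 1.79-fold and rank 19 from the top, and 0.28 in forebrain. The second rests on 1 accession and read 7.72 and 7.92 in forebrain and 7.63 and 7.86 in hippocampus. It placed the 4 arrays in the same order as the first, over a span of 0.29 where the first spanned 1.04. Its ethanol differences were 0.23 in hippocampus and 0.20 in forebrain. Both probe sets thus read higher after ethanol in both tissues, and the 1.5-fold difference in hippocampus was in the first. With both averaged, Ntng1 differed by 0.53 in hippocampus, short of 1.5-fold.

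Set together, 3 of the 7 genes, Tcf7l2, Calb2 and Ntng1, were at least 1.5-fold higher in hippocampus after ethanol and 0 were at least 1.5-fold lower. In all, 6 of the 7 read higher there, and 30.7% of kept genes did. Over all kept genes the shares were 0.490% higher and 0.427% lower, 54 and 47 genes. That split was 116 and 19 after centring the arrays on the median of kept genes, and 88 and 31 after quantile normalization. The count among the 7 genes was 3 and 0 in each, and 2 and 0 with probe sets averaged. The 7 were proposed with the hippocampus difference known, so their counts there are a description. The median difference of the 7 was 0.35, against -0.08 over all kept genes. In forebrain 6 of the 7 read higher, beside 46.1% of kept genes, and 0 of the 7 were 1.5-fold apart in either direction, with a background of 0.0454% higher and 0.0272% lower. The forebrain median of the 7 was 0.17, against -0.01 over all kept genes. Tcf7l2, at 0.47, came nearest to 1.5-fold there.

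**Figure D2:**
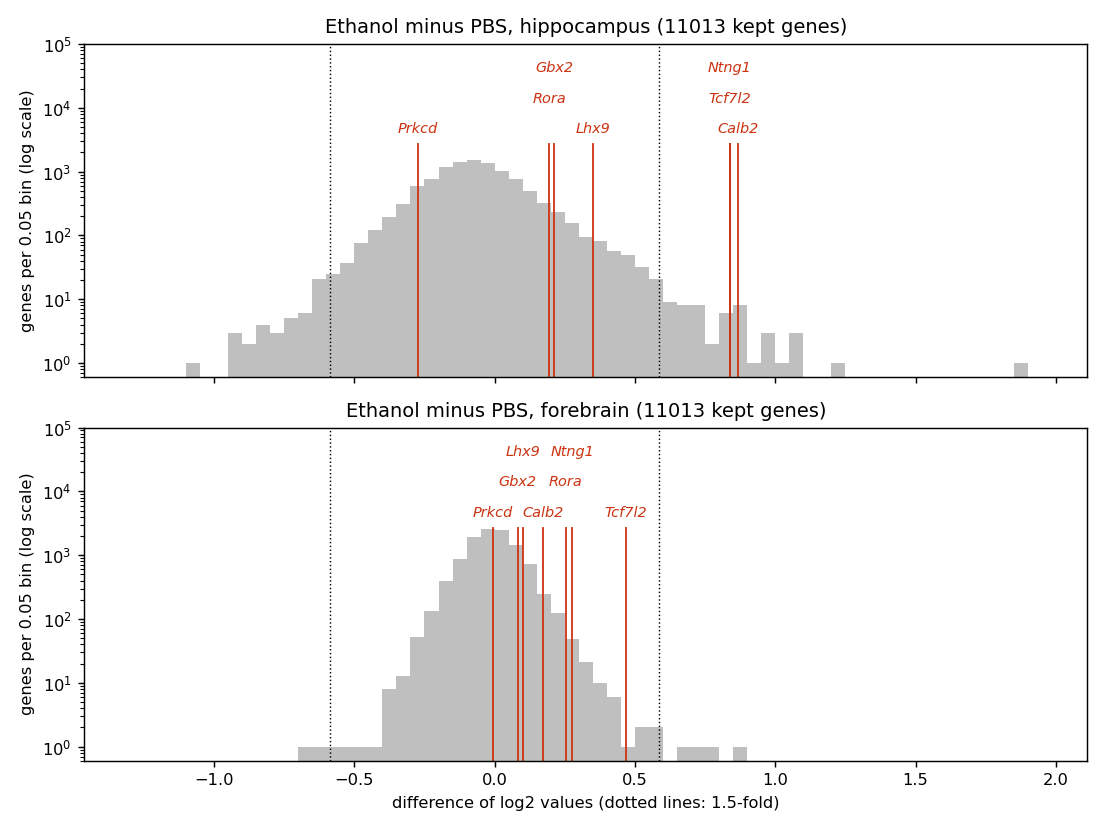
Distribution of the ethanol minus PBS difference (log2, x axis) over 11013 kept genes in hippocampus (top) and forebrain (bottom), as genes per bin on a log axis, with the 7 genes as red lines and 1.5-fold as dotted lines. Calb2, Tcf7l2 and Ntng1 lie at 0.84 to 0.87 in hippocampus, and Tcf7l2 at 0.47 is the farthest right of the 7 in forebrain.

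The ethanol difference of hippocampus exceeded that of forebrain by 0.69 for Calb2, 0.56 for the first Ntng1 probe set, 0.37 for Tcf7l2, 0.25 for Lhx9 and 0.13 for Gbx2. For Rora the hippocampus difference exceeded that of forebrain by -0.06, and by 0.02 with arrays centred on the median of kept genes. With 1 array a group, this difference between the tissues could not be tested. The direction was higher after ethanol in both tissues for 6 of the 7 genes, where 19.1% of kept genes read higher in both. Prkcd was the exception, and its forebrain difference became 0.01 after centring the arrays on the median of kept genes. As the genes were proposed with the hippocampus difference known, the count of 6 is a description.

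**Figure D3:**
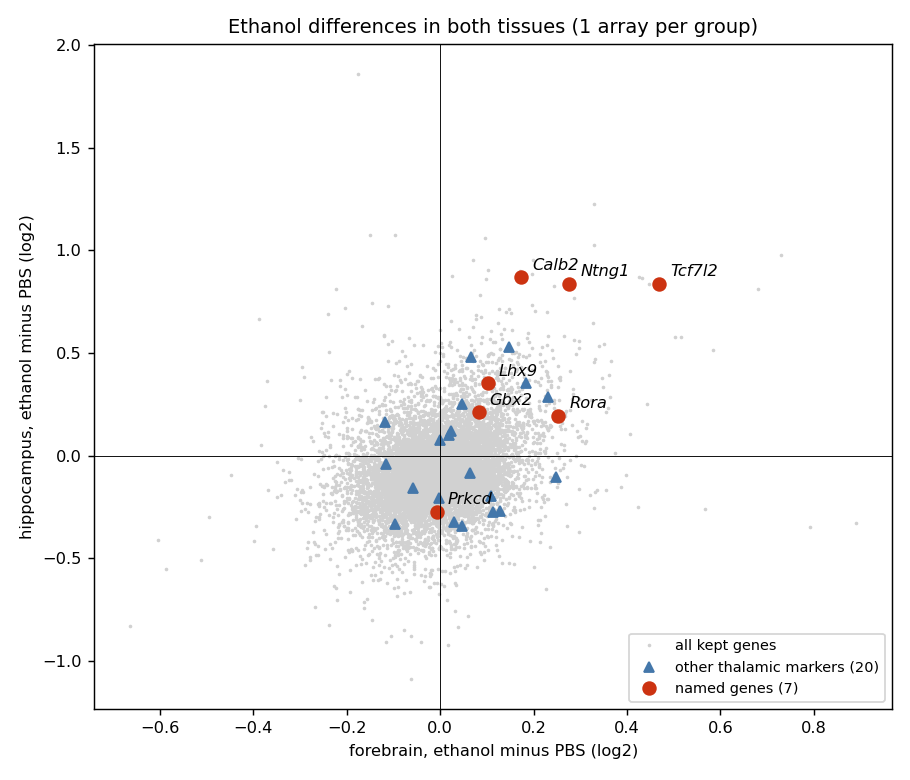
Ethanol minus PBS difference (log2) in forebrain (x axis) against hippocampus (y axis) for all kept genes (grey), 20 other thalamic markers (blue triangles) and the 7 genes (red). Tcf7l2, Calb2 and Ntng1 stand at the upper right, while the other thalamic markers lie on both sides of 0 in hippocampus, from -0.34 to 0.53.

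The tissues were compared next, after each treatment. After PBS, the hippocampus minus forebrain difference was -0.97 for Calb2, and the differences were -0.76 for the first Ntng1 probe set, -0.52 for Tcf7l2 and -0.46 for Lhx9. Calb2 and Ntng1 were past 1.5-fold, 2 of 7 genes, and over all kept genes 1.19% were at least 1.5-fold lower. With its 2 probe sets averaged, Ntng1 differed by -0.43 and was not past it. These counts hold the hippocampus PBS array by which the genes were in part proposed, so they are a description. Gbx2 and Rora differed by -0.21 and -0.17, and Prkcd by 0.11. After ethanol all 7 read lower in hippocampus, between -0.27 for Calb2 and -0.08 for Gbx2 (0.0084 for Gbx2 with arrays centred on kept genes), and 69.6% of kept genes read lower in that comparison. None of the 7 was past 1.5-fold there, where 0.536% of kept genes were lower by that amount. The distance between the tissues was thus smaller after ethanol for Calb2, Ntng1, Tcf7l2, Lhx9 and Gbx2, which restates the difference of the ethanol differences above. For Rora it was -0.23 after ethanol against -0.17 after PBS, and -0.14 against -0.16 with arrays centred on kept genes.

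Over both treatments the tissues were compared with limma, with treatment as an additive term and Benjamini-Hochberg adjustment over all kept genes. This fit leaves 1 residual degree of freedom, takes a difference between the tissues' ethanol responses as error, and holds the hippocampus PBS array by which the genes were in part proposed. Hippocampus minus forebrain was -0.62 for Calb2 (SE 0.148, limma adjusted p = 0.115). It was -0.48 for Ntng1 (SE 0.129, limma adjusted p = 0.146), -0.33 for Lhx9 (SE 0.0930, adjusted p = 0.154) and -0.33 for Tcf7l2 (SE 0.101, adjusted p = 0.182). Rora differed by -0.20, Gbx2 by -0.15 and Prkcd by -0.03, with limma adjusted p of 0.316, 0.504 and 0.937. Thus 0 of the 7 genes passed 0.05 after adjustment by limma, where 1.02% of kept genes passed as lower and 0.109% as higher, and 5 of the 7, all lower, had an unadjusted p under 0.05, as did 11.9% of kept genes on the lower side. After quantile normalization Calb2 passed, at -0.59 with a limma adjusted p of 0.0420. In that setting limma called 352 of the 11013 kept genes lower and 71 higher, against 112 and 12 in the main fit.

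Other markers of the thalamus, a list of 32 genes, read in both directions in hippocampus after ethanol. The list was chosen with earlier results of these data known. Of 31 with a probe set, 20 passed the filter. Of these, 9 read higher and 11 lower, where 30.7% of kept genes read higher. The median of the 20 was -0.06 beside -0.08 over all kept genes. The highest were Foxp2, a forkhead factor also found in striatum and cortex, at 0.53, and the zinc finger homeobox gene Zfhx3 at 0.48. Slc17a6, the vesicular glutamate transporter of thalamic neurons, read 10.21 and 10.44 in forebrain and 9.76 and 10.04 in hippocampus, an ethanol difference of 0.28 in hippocampus and 0.23 in forebrain. Lower were the cadherin gene Cdh12 at -0.34 and Rorb, the paralogue of Rora, at -0.33. Cacna1g, a T-type calcium channel gene of thalamic neurons, differed by -0.21, and 0 of the 20 were past 1.5-fold in either direction. The count of 9 higher was 11 with arrays centred on kept genes and 10 after quantile normalization. Among the listed genes below the filter were Olig3, Shox2, Sox14 and Slc6a4, with mean readings of 4.73, 5.26, 6.95 and 6.53. In forebrain 14 of the 20 read higher after ethanol, with a median of 0.05, where 46.1% of kept genes read higher with a median of -0.01. Between tissues after PBS, 14 of 20 read lower in hippocampus (median -0.10, against 0.01 over all kept genes). After ethanol 15 of 20 did (median -0.20, against -0.06 over all kept genes), where 69.6% of kept genes read lower.

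Neighbouring regions were read through lists of their own, chosen in the same way. Of 12 habenular genes 4 passed the filter, and the habenular factor Pou4f1 was at a mean of 5.52. The 4 were Nr4a2 at -0.58 in hippocampus after ethanol, Nhlh2 at -0.16, Lmo3 at 0.04 and Etv1 at 0.22. Of 17 hypothalamic genes 5 passed the filter, and all 5 read higher in hippocampus after ethanol, with a median of 0.30, where 30.7% of kept genes read higher. They were the LIM-homeobox gene Isl1, which striatal neurons share, at 0.46, the oxytocin gene Oxt at 0.31, the homeobox genes Otp at 0.30 and Hmx2 at 0.30, and Hmx3 at 0.15. The defining hypothalamic genes Sim1, Pomc, Pmch and Hcrt were below the filter, and Hmx3, with a mean of 7.11, was near it.

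The netrin-G proteins bind the postsynaptic NGL proteins. Lrrc4c, which encodes the netrin-G1 ligand NGL-1, read 9.04 and 9.13 in forebrain after PBS and ethanol, and 9.09 and 9.10 in hippocampus. Its hippocampus ethanol difference was 0.00 where that of the first Ntng1 probe set was 0.84. Lrrc4, which encodes NGL-2, read 8.75, 8.82, 8.77 and 8.60 in the same order, a hippocampus ethanol difference of -0.17. Lrrc4b and the receptor phosphatase genes Ptprf, Ptprd and Ptprs, which encode the NGL-3 pair, differed between -0.26 and 0.09 in hippocampus. Of these 6 NGL and receptor phosphatase genes, 3 read higher and 3 lower, with a median of -0.01. Among 9 kept genes of the classical netrins and their receptors, 2 read higher and 7 lower (median -0.08), which became 5 and 4 with arrays centred on kept genes. Of all kept genes, 30.7% read higher in hippocampus after ethanol, with a median of -0.08. The ligand genes Ntn1 and Ntn4 were highest at 0.46 and 0.01, and the receptor genes Unc5d and Unc5a lowest at -0.56 and -0.35.

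Close relatives of the 7 genes gave mixed values. Calb1, the calbindin gene and a paralogue of Calb2, read 8.18 and 8.28 in forebrain after PBS and ethanol, and 7.60 and 8.46 in hippocampus. Its hippocampus ethanol difference of 0.86 lay beside the 0.87 of Calb2, and in both the hippocampus PBS array was lowest. The LIM-homeobox gene Lhx2 of cortical progenitors differed by -0.67, Lhx6 of interneurons by -0.22 and Lhx8 by 0.29, against 0.35 for Lhx9. Lef1, which encodes a DNA-binding partner of beta-catenin as Tcf7l2 does, read 7.65 and 7.72 in forebrain and 7.67 and 7.59 in hippocampus and differed by -0.09. Of 6 kept protein kinase C genes other than Prkcd, Prkcb was highest at 0.31 and Prkci lowest at -0.12. In all 12 kept relatives, 5 read higher and 7 lower, where 30.7% of kept genes read higher in hippocampus after ethanol.

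Markers of other cell types moved with the same arrays. Their lists were chosen with earlier results of these data known. Over all kept genes, 30.7% read higher in hippocampus after ethanol. In hippocampus after ethanol, 12 of 12 kept striatal markers read higher (median 0.44), with Rarb at 0.72 and Rxrg at 0.67 highest and Ppp1r1b at 0.03 and Foxp1 at 0.22 lowest. Of 14 cortical projection neuron genes 13 read lower (median -0.47), Sox5 at -0.85 and Nfia at -0.70 being lowest and Bcl11b at 0.30 and Cux1 at -0.12 highest. Their mean level was 9.82 and 9.77 in forebrain after PBS and ethanol, and 10.07 and 9.65 in hippocampus. Of 9 kept meningeal markers 8 read higher (median 0.21), with Dcn at 0.73 and Slc6a13 at 0.59 highest and Foxc1 at -0.06 and Col1a1 at 0.12 lowest. Of 14 GABAergic genes 9 read higher (median 0.18), with Sst at 0.63 and Gad1 at 0.51 highest and Npy at -0.30 and Lhx6 at -0.22 lowest. Mean levels of the GABAergic genes ran from 8.95 in hippocampus after PBS to 9.11 in forebrain after PBS.

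As with most of the 7 genes, the hippocampus PBS array read lowest for 8 of 9 meningeal markers, beside 19.9% of kept genes. Their median there was 1.06 below forebrain. Their mean level was 8.89 and 8.74 in forebrain after PBS and ethanol, and 7.83 and 8.15 in hippocampus. In forebrain all 9 read lower after ethanol (median -0.12), where 6 of the 7 genes read higher. Of the striatal markers, 1 of 12 read lowest in the hippocampus PBS array, and their mean level was 9.01, 8.93, 9.19 and 9.62 in the same order. In hippocampus, choroid plexus markers were lower after ethanol in 6 of 6 (median -0.26), where 30.7% of kept genes read higher. With arrays centred on kept genes, 1 of these markers read higher and 5 lower (median -0.16). Lowest were Clic6 at -0.48 and Aqp1 at -0.42, and highest Foxj1 at -0.06 and Ttr at -0.20. The choroid plexus mean level was 8.10, 8.18, 8.51 and 8.23 in the same order. Of 7 Cajal-Retzius markers, which calretinin can share, 3 read higher and 4 lower (median -0.16), with Ebf3 at 0.81 and Cacna2d2 at 0.40 highest, Cxcr4 at -0.44 and Ndnf at -0.40 lowest, and Reln at 0.00. The part of these cell types in the values of the 7 genes was not tested.

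Markers of hippocampal fields gave mixed differences between the arrays labelled hippocampus and forebrain. Of 11 kept, 7 read higher and 4 lower in hippocampus than in forebrain after PBS, with a median of 0.05. After ethanol 5 read higher and 6 lower in hippocampus than in forebrain, with a median of -0.00 (0.09 with arrays centred on kept genes). In that comparison 69.6% of kept genes read lower. Zbtb20, a factor of hippocampal pyramidal neurons, read 10.39 and 10.49 in forebrain and 10.75 and 10.72 in hippocampus, and Prox1, of dentate granule cells, read 8.51 and 8.59 against 8.35 and 8.26. Emx2 and Neurod1, which encode transcription factors of the developing hippocampus, read 0.33 and 0.30 higher in hippocampus than in forebrain after PBS. For ethanol minus PBS in hippocampus, 3 of the 11 read higher and 8 lower, where 30.7% of kept genes read higher. The median of the 11 was -0.09. With arrays centred on kept genes, 6 read higher and 5 lower (median 0.01). Highest were Calb1 at 0.86 and Wfs1 at 0.22, and lowest Lmo1 at -0.58 and Emx2 at -0.36.

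**Figure D4:**
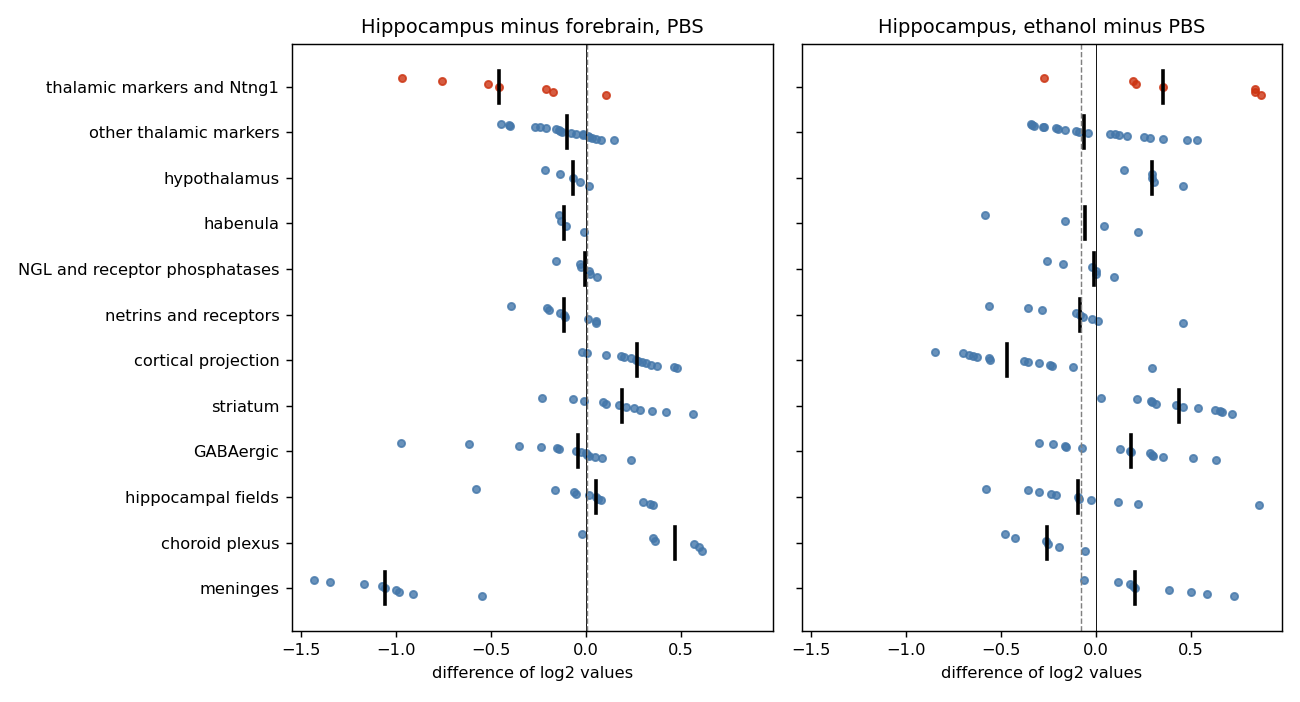
Differences of log2 values (x axis) for the kept genes of each list, as hippocampus minus forebrain after PBS (left) and ethanol minus PBS in hippocampus (right); each dot is a gene, black bars are list medians and the dashed line is the median over all kept genes. The 7 genes (red) have medians of -0.46 and 0.35, meningeal markers -1.06 and 0.21, and other thalamic markers -0.10 and -0.06.

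Patterns among the genes were compared by the root mean square difference of log2 values centred on each gene's mean, over the 4 arrays. Of the 7, the nearest pairs were Gbx2 and Rora at 0.07, which varied little, and Calb2 and Ntng1 at 0.08, while Calb2 and Prkcd were farthest apart at 0.50. For the 3 genes whose arrays spanned at least 1.5-fold, the kept genes most alike were named. For Tcf7l2 they were Cbln2, a secreted synapse organizer, at 0.08, the olfactomedin gene Olfm3 at 0.09 and the transcription factor gene Ebf3 at 0.09. For Calb2 they were the non-coding RNA host gene Snhg11 at 0.03, the secreted proteoglycan gene Spock3 at 0.03 and the secretogranin gene Scg2 at 0.05. For Ntng1 they were Olfm3 at 0.03, the zinc finger gene Zcchc12 at 0.06 and the splicing regulator gene Nova1 at 0.06. Olfm3 read 7.67 and 7.92 in forebrain and 6.96 and 7.79 in hippocampus. With 4 arrays many genes share such an order, and likeness here is a description.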

How the data were processed

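RNA was isolated with Trizol, and 6 ug went into biotinylated cRNA, per the labels' protocols. MAS5 is named in the submitters' processing notes. How it was run and scaled is not given in the sources used here, nor is its background step. The authors' deposited values are on the log2 scale: the labels do not state it, and it was read from the values, whose highest (13.96) would exceed the range of a 16-bit scanner on a natural-log scale. Array medians lay between 7.11 and 7.13 over all probe sets. The number of arrays limits the precision.

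Gene names came from the annotation table of the platform. Of 35557, 21789 had 1 gene symbol, 1621 several and 12147 none. Gene identifiers of 21698 matched a RefSeq table (GRCm38.p6), with 0 symbols changed. Each of 19938 genes was read by its probe set with the highest mean, and 11013 at or above the median of probe set means (7.11) were kept.

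Pairs of arrays were compared by their difference, without a test. Over all kept genes tissue was tested with limma 3.58.1 (R 4.3.3, eBayes with trend, Benjamini-Hochberg), after a check on simulated data. Other steps used Python 3.11.15 (pandas 2.3.3, numpy 2.4.6) and figures matplotlib 3.10.9. The genes and lists were chosen with earlier results of these data known. The genes named are the listed ones, the 2 highest and 2 lowest kept genes of each list in the hippocampus ethanol difference, and the 3 genes most alike in pattern to those spanning 1.5-fold. Other genes of the lists that are given values, among them Slc17a6, Cacna1g, Lef1, Lrrc4c, Zbtb20 and Prox1, were chosen after their values were seen.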

Additional observations from a re-analysis of the deposited data

Results flagged for a closer look

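The following differences had opposite signs in the groups compared, each resting on 1 array a group, and the difference between the groups was not tested. Prkcd read 0.11 higher in hippocampus than in forebrain after PBS and differed by -0.16 after ethanol.

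For ethanol minus PBS, some lists had medians of opposite sign in hippocampus and forebrain. These were other thalamic markers (-0.063 and 0.046), netrins and receptors (-0.084 and 0.010), GABAergic genes (0.18 and -0.08), striatal markers (0.44 and -0.04), hippocampal field markers (-0.091 and 0.055; 0.01 and 0.07 with arrays centred on kept genes), choroid plexus markers (-0.26 and 0.05) and meningeal markers (0.21 and -0.12). For other thalamic markers and for netrins the hippocampus median was 0.04 and 0.02 with arrays centred on kept genes, so their opposite signs went with the scaling.

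Single genes of these lists did the same, each by more than the standard deviation over all kept genes in both tissues. Higher in hippocampus and lower in forebrain were Isl1 (0.46 and -0.11), Lhx8 (0.29 and -0.18), Gad2 (0.30 and -0.11), Sst (0.63 and -0.17), Bcl11b (0.30 and -0.20), Rarb (0.72 and -0.20), Rxrg (0.67 and -0.39), Dcn (0.73 and -0.11), Col1a2 (0.19 and -0.11), Col3a1 (0.50 and -0.24), Foxd1 (0.38 and -0.29) and Slc6a13 (0.59 and -0.12). Lower in hippocampus and higher in forebrain were Rgs16 (-0.20 and 0.11), Necab1 (-0.28 and 0.11), Cdh6 (-0.27 and 0.13), Pou3f2 (-0.24 and 0.27), Ttr (-0.20 and 0.11) and Otx2 (-0.25 and 0.33). The median of kept genes was 8.67 in the hippocampus PBS array and 8.57 in the hippocampus ethanol array. Centring arrays on kept genes makes the negative hippocampus values of these genes smaller, short of the standard deviation of 0.19. Both groups of genes were picked without that centring.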

How the results depend on the processing

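Of 229 values of single genes of the set under an alternative, 8 moved by more than the standard deviation over all kept genes, crossed the limma threshold or changed sign. They were Ntng1 with its probe sets averaged (0.53 in hippocampus after ethanol, -0.43 between tissues after PBS and 0.29 for the difference of the ethanol differences), Calb2 between tissues after quantile normalization (-0.59, called by limma), and 4 changes of sign with arrays centred on their median over kept genes. These 4 were Prkcd between tissues by limma (0.024 against -0.026), Prkcd in forebrain after ethanol (0.01 against -0.0073), Gbx2 between tissues after ethanol (0.0084 against -0.08) and the difference of the ethanol differences of Rora (0.02 against -0.06). That centring was added after seeing the data. The 229 include values that were fixed in advance. Changing or dropping the filter left each gene's array values as they were, and averaging probe sets changed only those of Ntng1. Limma without the trend kept the differences of the main fit. In these settings a limma call could change, but the differences themselves could not. The count of 8 of 229 is therefore not a measure of stability. Over all settings the hippocampus ethanol difference ran from 0.84 to 0.94 for Tcf7l2.

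Genes past 1.5-fold in hippocampus after ethanol numbered 54 higher and 47 lower, and 88 and 31 after quantile normalization, 116 and 19 centred on kept genes, 131 and 77 unfiltered, 23 and 30 under the 75th percentile filter, and 6 and 1 at 2-fold. In forebrain the 5 higher and 3 lower became 24 and 22 unfiltered, 1 and 1 under the 75th percentile filter, 0 and 0 at 2-fold, and 1 lower centred on kept genes. Between tissues after PBS, 10 higher and 131 lower became 37 and 200 unfiltered, 1 and 36 under the 75th percentile filter, and 0 and 28 at 2-fold. After ethanol, 17 and 59 became 32 and 31 centred on kept genes, 74 higher unfiltered, 8 and 17 under the 75th percentile filter, and 4 and 1 at 2-fold. The 3 genes of the set past 1.5-fold in hippocampus after ethanol were 2 with probe sets averaged and 0 at 2-fold. They were 1 with the 75th percentile filter, which only Tcf7l2 and Prkcd of the 7 pass. The 2 lower between tissues after PBS became 1 with probe sets averaged and 0 with the 75th percentile filter or at 2-fold. With that filter the median of the genes left was -0.21 between tissues after PBS and 0.052 for the difference of the ethanol differences.

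Limma called 12 genes higher and 112 lower between tissues, against 71 and 352 after quantile normalization (1 of the 7 genes), 172 lower centred on all probe sets, 21 and 45 centred on kept genes, 4 and 33 without a filter, 23 higher under the 75th percentile filter, and 2 and 25 with no trend. Where no other cause is given, the cause was not tested. No paired analysis was possible because each group has 1 array and the labels give no replicate numbers. The limma fit of tissues holds treatment as a term.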
